A study of Nicotiana tabacum with 12 samples.

Results

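A set of 116 tobacco genes was examined whose RNA level in leaves of the transgenic line L16 stood apart from the wild type and from the lines L14 and L15. In 54 of them the L16 level was higher and in 62 it was lower, and the 2 directions were kept apart throughout. They were chosen by their own levels, given as counts-per-million (CPM, the count of a gene set against the sum of all gene counts of the library). A gene needed a mean of at least 2 CPM over all 12 libraries, ratios of mean CPM between 0.67 and 1.5 for both L14 over wild type and L15 over wild type, and an L16 over wild type ratio of at least 2 with all 3 L16 libraries above the other 9, or of at most 0.5 with all 3 below the other 9. Of 35519 gene identifiers listed, 12868 reached the mean of 2 CPM and 8664 of these fell inside the band set for L14 and L15. Inside that band 85 genes had an L16 ratio of at least 2 and 96 a ratio of at most 0.5, before libraries that overlapped were removed. Among the 12868 genes, all 3 L16 libraries lay above the other 9 in 459 genes (3.57%) and below the other 9 in 507 (3.94%), whatever L14 and L15 did. Since these same values chose the genes, their size and separation are given as a description, with no test.

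The study compared *Nicotiana tabacum* cultivar Xanthi NN plants carrying the carrot lycopene β-cyclase gene *DcLCYB1* with wild type plants of the same cultivar. L16, L14, and L15 are each 1 transgenic line, and they and the wild type had 3 libraries each, described as biological replicates. Seeds of the lines and of the wild type were germinated on a sucrose medium with kanamycin, and RNA came from leaves of 5-week-old plants (the labels name the T4 generation for the lines in one place and T3 plants in another). The libraries were made with QuantSeq, which reads a short stretch near the 3′ end of each transcript, so that the count of a gene does not grow with its length.

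Lycopene β-cyclase closes the rings of lycopene to form β-carotene in the plastid. Products of this pathway protect the photosynthetic apparatus and are precursors of abscisic acid, and the pathway draws on the same isoprenoid precursor as the gibberellins and chlorophyll. A line is the offspring of a single transformed plant. The identifiers of the deposited counts have the form of a scaffold number and a place on that scaffold and are not paired with gene names, so no function is given for any gene below. The study mapped these identifiers to Arabidopsis genes, and that mapping was not used here. For the same reason the tissue label was not checked against marker genes, and the level of the carrot transgene was not analysed here.

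The sum of gene counts per library was 16786444 to 18177338 in L16, 14468170 to 22667265 in L14, 13032294 to 21067852 in L15, and 12887911 to 24343174 in the wild type. At this depth 3 counts, taken as the smallest number that could be called detected, corresponded to between 0.123 and 0.233 CPM, which covers counting error only. No gene of the set had a count of 0 in any library. The smallest count of a higher gene was 12 and that of a lower gene was 6. Of all counts listed for a library, summary lines included, the share outside annotated genes was 33.4 to 35.4% in L16, 34.5 to 35.4% in L14, 34.6 to 36.4% in L15, and 35.6 to 38.1% in the wild type. Wild type replicate 3 stood apart from the other libraries of its genotype. The dispersion between replicates, as a chi-square per degree of freedom over genes, was 51.8 and 69.0 for the wild type pairs that included it, against 24.0 for the other wild type pair, and between 12.3 and 41.2 within L16, L14, and L15.

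The 54 higher genes had a median L16 over wild type ratio of 2.53 (range 2.01 to 7.98), and the 62 lower genes a median of 0.432 (range 0.192 to 0.4997), which is 2.31-fold lower. Over all 12868 genes the median ratio was 1.04. In the higher genes the change reached 3-fold in 19 and 4-fold in 10, and stayed under 2.5-fold in 26. In the lower genes the ratio was 0.4 or less in 18 and a 3-fold reduction was reached in 4. Changes of at least 3-fold were thus more often upward in the set. The same held over all 12868 genes, where 501 (3.89%) were at least 3-fold higher and 203 (1.58%) at least 3-fold lower. The top of the range for the higher genes turned on single libraries, at 12.3 without wild type replicate 2 and between 6.38 and 10.3 with any other L16 or wild type library left out. The largest reduction was to 0.240 without wild type replicate 2 and 0.140 without wild type replicate 3. The higher genes had a median mean level of 13.2 CPM (range 2.23 to 1388 CPM) and the lower genes one of 6.16 CPM (range 2.06 to 212.5 CPM), against 11.3 CPM over all 12868. Of the lower genes 25 of 62 had a mean under 5 CPM, against 12 of 54 of the higher genes and 27.7% of all 12868. In bulk leaf RNA a change in the number of cells of a type cannot be told apart from a change in RNA per cell.

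**Figure D1:**
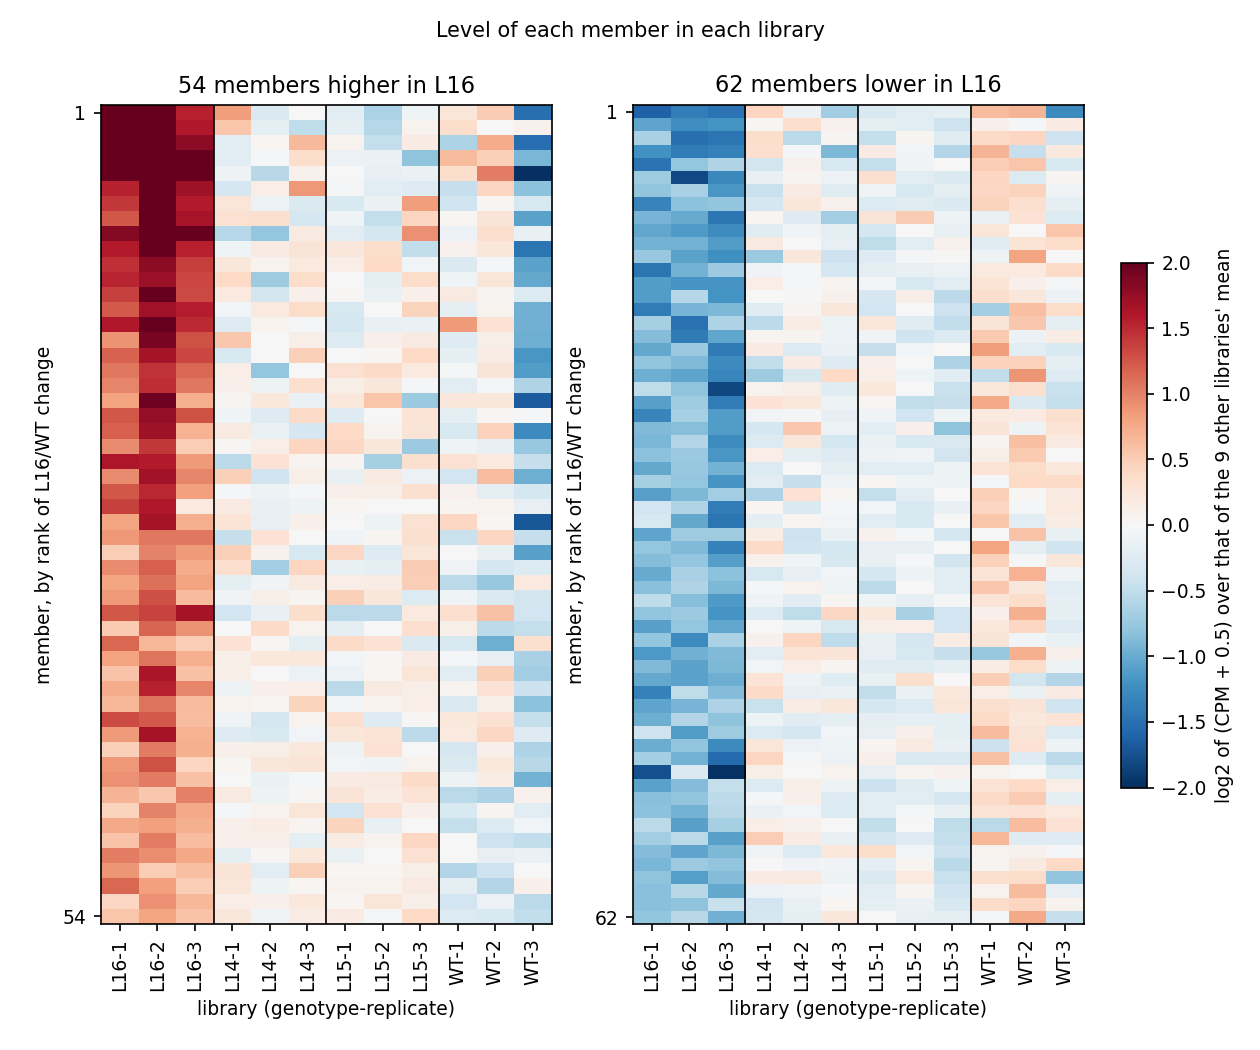
Level of each gene of the set in each of the 12 libraries, as log2 of the ratio of (CPM + 0.5) to the mean CPM of the 9 libraries that are not L16, also with 0.5 added. Left, the 54 higher genes, and right, the 62 lower genes, with the gene of largest change at the top. Colours are capped at 2 and -2. Columns are libraries, in the order L16, L14, L15, and wild type (WT). The L16 columns are red throughout on the left and blue throughout on the right because the genes were chosen so, while the wild type replicate 3 column is blue for many of the higher genes.

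Summed over the 54 higher genes, the level was 5256, 5611, and 4485 CPM in the L16 libraries, 2715, 2304, and 2589 CPM in L14, 2577, 2571, and 2847 CPM in L15, and 2148, 2041, and 2181 CPM in the wild type. The single most abundant gene made up between 1627 and 2558 CPM of the L16 sums. In the other libraries it made up 1078 to 1372 CPM in L14, 1211 to 1311 CPM in L15, and 776 to 1249 CPM in the wild type. Summed over the 62 lower genes, the level was 692.5, 764.8, and 660.0 CPM in the L16 libraries, 1272, 1328, and 1335 CPM in L14, 1213, 1296, and 1137 CPM in L15, and 1556, 1750, and 1500 CPM in the wild type. In both sums the L14 and L15 libraries lay between L16 and the wild type. For the higher genes this order rests largely on the single most abundant gene and is not read as a trait of the others. In the sum over the lower genes no library of L14 or L15 reached the lowest wild type value.

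The higher gene with the largest change was Nitab4.5_0005046g0010. Its level was 23.4, 27.9, and 8.43 CPM in the L16 libraries, 4.91, 1.99, and 2.51 CPM in L14, 2.13, 1.47, and 2.38 CPM in L15, and 3.10, 3.81, and 0.575 CPM in the wild type. The L16 libraries were unequal, with replicate 3 less than 2 times above the highest L14 library. The mean was 19.9 ± 10.2 CPM in L16, 3.14 ± 1.55 CPM in L14, 1.99 ± 0.469 CPM in L15, and 2.497 ± 1.70 CPM in the wild type (SD, n = 3 each), so that L16 was 7.98-fold above the wild type, 6.35-fold above L14, and 9.999-fold above L15. Against the wild type, L14 stood at 1.26 and L15 at 0.798. The lowest wild type value was that of replicate 3, with 14 counts, against 40 and 63 in the other wild type libraries. Without that library L16 was 5.76-fold above the wild type, and without wild type replicate 2 it was 10.8-fold above. Its first place also depended on the libraries, since another gene had the largest change without L16 replicate 1, wild type replicate 2, or wild type replicate 3.

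The most abundant higher gene, Nitab4.5_0003540g0040, had a much smaller change. It was at 2558, 2042, and 1627 CPM in L16, 1372, 1078, and 1191 CPM in L14, 1211, 1223, and 1311 CPM in L15, and 1023, 776, and 1249 CPM in the wild type. Every L16 library was above every other library, but the lowest of them exceeded the highest L14 library by only 1.19-fold. The means were 2076 ± 466 CPM in L16, 1214 ± 148 CPM in L14, 1248 ± 54.4 CPM in L15, and 1016 ± 237 CPM in the wild type (SD, n = 3 each). The L16 mean was 2.04 times that of the wild type, 1.71 times that of L14, and 1.66 times that of L15, and the gene ranked 52 of 54 by its change.

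Other higher genes, picked out after their values were seen and given here by rank, showed wider gaps. The fourth by change had 125.4, 211.6, and 119.3 CPM in L16, 18.2, 20.9, and 27.1 CPM in L14, 19.5, 19.2, and 11.9 CPM in L15, and 33.3, 29.7, and 11.1 CPM in the wild type. Its lowest L16 library was 3.58 times its highest other library, the widest gap in the set. The ninth, with the highest mean level among the first 10 (149.99 CPM), had 286.1, 382.9, and 413.8 CPM in L16, 53.4, 46.5, and 90.6 CPM in L14, 68.3, 62.4, and 150.2 CPM in L15, and 73.3, 100.4, and 72.0 CPM in the wild type. Here L16 replicate 3 was the highest library, and L15 replicate 3 stood well above the other L15 libraries. The gene that ranked 13 had 15.8, 34.2, and 15.29 CPM in L16, 6.77, 4.42, and 6.31 CPM in L14, 5.92, 5.27, and 6.29 CPM in L15, and 6.67, 6.05, and 4.72 CPM in the wild type. In this gene L14, L15, and the wild type had nearly equal means (5.83 ± 1.249, 5.83 ± 0.518, and 5.82 ± 0.995 CPM, SD, n = 3 each), and L16 alone was displaced, by 3.75-fold. The first 10 higher genes together had changes of 4.40 to 7.98-fold against the wild type, 3.13 to 8.87-fold against L14, and 3.16 to 10.98-fold against L15.

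The lower gene with the largest change was Nitab4.5_0004097g0040. It had 0.536, 0.715, and 0.639 CPM in L16, 3.801, 2.42, and 1.46 CPM in L14, 2.08, 2.23, and 2.30 CPM in L15, and 4.42, 4.60, and 0.822 CPM in the wild type. These L16 values rest on 9, 13, and 11 counts. Wild type replicate 3 was only 1.15 times above the highest L16 library, while the other wild type libraries were the highest of all 12. The means were 0.630 ± 0.0899 CPM in L16, 2.56 ± 1.18 CPM in L14, 2.20 ± 0.115 CPM in L15, and 3.28 ± 2.13 CPM in the wild type (SD, n = 3 each), a ratio of 0.192 for L16 over wild type. The ratio of L15 over wild type, 0.672, was just inside the lower edge of the band, and that of L14 was 0.780. Without wild type replicate 3 the ratios were 0.140 for L16, 0.568 for L14, and 0.488 for L15, so that both other lines left the band.

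The most abundant lower gene was Nitab4.5_0000737g0020, with L16 libraries close together and wild type libraries more widely spread. It had 119.6, 111.5, and 103.2 CPM in L16, 208.8, 235.0, and 216.1 CPM in L14, 191.9, 244.4, and 221.1 CPM in L15, and 290.2, 247.4, and 361.2 CPM in the wild type. The L16 libraries were the 3 lowest, the L14 and L15 libraries came next, and every wild type library was above all of these. The means were 111 ± 8.17 CPM in L16, 220.0 ± 13.5 CPM in L14, 219 ± 26.3 CPM in L15, and 299.6 ± 57.5 CPM in the wild type (SD, n = 3 each). L16 was at 0.372 of the wild type, and at 0.507 of L14 and 0.508 of L15. L14 and L15 were at 0.734 and 0.732 of the wild type.

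Among the other lower genes, again by rank and picked out after their values were seen, the second had 0.953, 0.770, and 0.814 CPM in L16, 2.56, 3.29, and 2.69 CPM in L14, 2.13, 2.09, and 1.76 CPM in L15, and 2.72, 2.42, and 2.88 CPM in the wild type. Its highest L16 library was 1.85 times below its lowest other library, the widest gap of the lower genes. The gene that ranked 14 had 4.35, 4.13, and 4.13 CPM in L16, 10.99, 9.75, and 10.5 CPM in L14, 9.61, 7.97, and 8.59 CPM in L15, and 12.3, 10.8, and 9.82 CPM in the wild type. Its L16 libraries were almost equal, at 4.20 ± 0.128 CPM (SD, n = 3), and its gap was 1.83-fold. The gene that ranked 60, the next most abundant after Nitab4.5_0000737g0020, had 114.9, 138.9, and 100.5 CPM in L16, 188.6, 194.8, and 200.6 CPM in L14, 177.5, 212.1, and 155.6 CPM in L15, and 215.4, 317.1, and 183.0 CPM in the wild type. Here wild type replicate 3 lay below several L14 and L15 libraries, and only the L16 libraries stood clear of the rest.

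**Figure D2:**
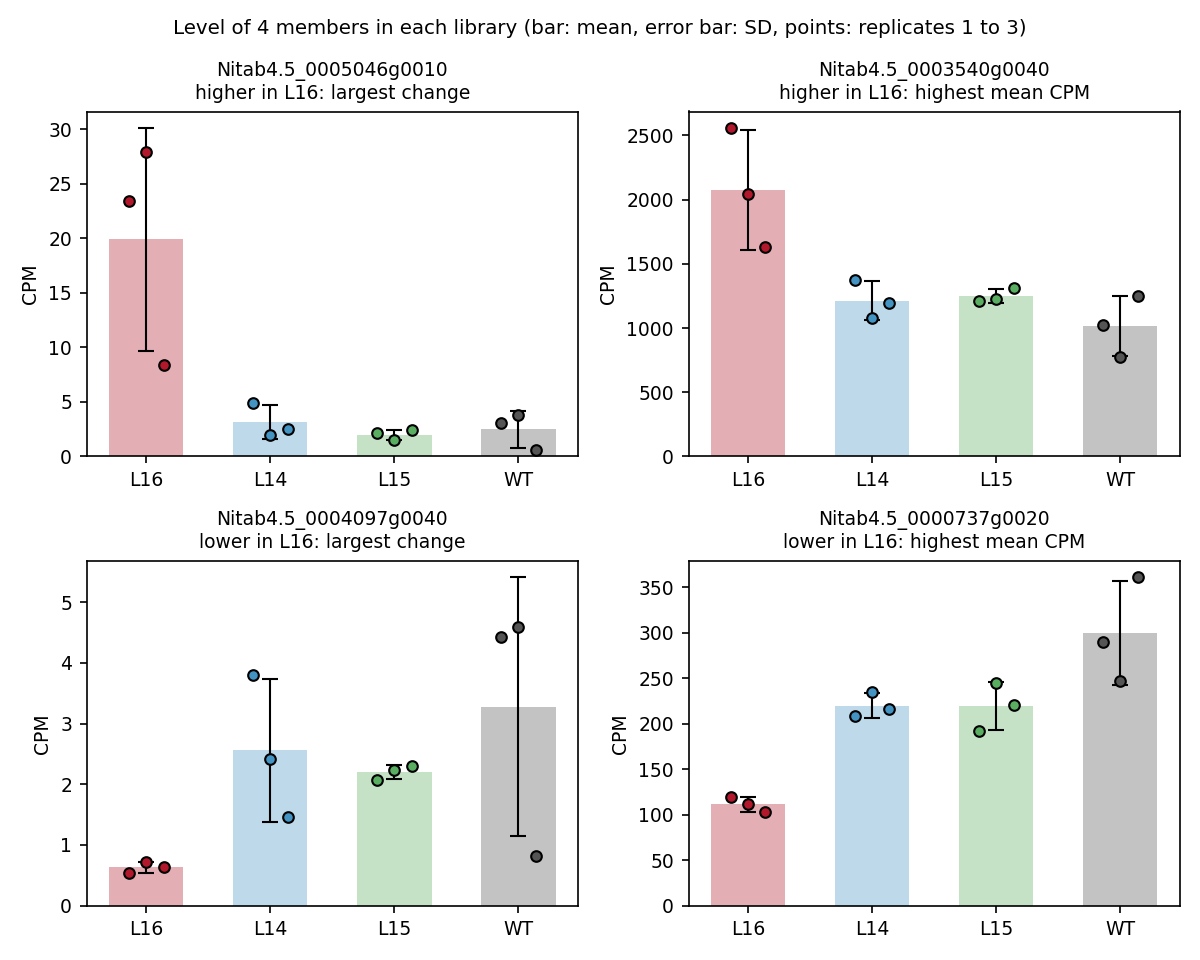
Level in CPM (linear axes from 0) of the higher and lower genes with the largest change (left) and the highest mean level (right). Bars are means, error bars are SD, and points are the 3 libraries of each genotype, with L16 at the left and the wild type at the right. For Nitab4.5_0000737g0020 the L14 and L15 bars stand between those of L16 (111 CPM) and the wild type (299.6 CPM), and for Nitab4.5_0004097g0040 one wild type library lies close to the L16 points.

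The distance between L16 and the nearest other library was small for many genes. The lowest L16 library of a higher gene was a median of 1.27 times the highest of the other 9 (range 1.00 to 3.58), with 20 of 54 at 1.5 or more, 7 at 2 or more, and 6 under 1.1. The highest L16 library of a lower gene was a median of 1.18 times below the lowest of the other 9 (range 1.00 to 1.85), with 4 of 62 at 1.5 or more, none at 2 or more, and 20 under 1.1. The nearest other library of a higher gene was an L15 library in 24 genes, an L14 library in 18, and a wild type library in 12. For the lower genes it was an L15 library in 29, an L14 library in 21, and a wild type library in 12. The nearest library was thus one of L14 or L15 in most genes of both directions, and 6 of the 9 other libraries belong to these lines.

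At the edge of the rule the ratios ran on without a break. The higher gene with the smallest change was at 2.01 (176.2 CPM in L16 and 87.9 CPM in the wild type), and the nearest gene that met every other condition was at 1.98 (66.4 CPM in L16 and 33.5 CPM in the wild type). A further 103 genes met the other conditions with a ratio between 1.5 and 2. The lower gene with the smallest change was at 0.4997 (5.88 CPM in L16 and 11.8 CPM in the wild type), the nearest one outside was at 0.5001 (1.63 CPM in L16 and 3.27 CPM in the wild type), and 180 more lay between 0.5 and 0.67.

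Within the band that the rule set, L14 and L15 were placed as follows. These values share the wild type libraries with the L16 ratio that chose the genes, so a low or high wild type mean moves all of them the same way, and they are a description only. Among the higher genes L14 and L15 were both above the wild type in 42 of 54 (77.8%), both below it in 7, and on opposite sides in 5. Their median ratios over the wild type were 1.23 for L14 and 1.2498 for L15, against 1.09 and 1.06 over all 12868 genes, of which 52.2% had both lines above the wild type. Without wild type replicate 3 both lines were above the wild type in 27 of 54 higher genes and below it in 19, with medians of 1.08 for L14 and 1.09 for L15, against 46.2% and medians of 1.04 and 1.01 over all genes, so this count depended on that library. Among the lower genes L14 and L15 were both below the wild type in 52 of 62 (83.9%), both above it in 3, and on opposite sides in 7. Here the median ratios were 0.823 for L14 and 0.749 for L15, and 33.6% of all 12868 genes had both lines below the wild type. With wild type replicate 3 left out, both lines were below it in 57 of 62 lower genes (40.1% of all genes), with medians of 0.778 and 0.716, and without wild type replicate 1 or 2 in 46 or 48. The order WT > L14 > L15 > L16 held in 40 of the 62 lower genes and WT > L15 > L14 > L16 in 12. The mean of L14 and L15 covered a median of 19.1% of the log2 distance between L16 and the wild type in the higher genes (range -31.2 to 50.5%) and 26% in the lower genes (range -11.3 to 48.3%). In 14 higher and 17 lower genes both L14 and L15 were at most 25% above and at most 20% below the wild type, and in the remaining 85 at least one of the lines lay outside these limits.

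**Figure D3:**
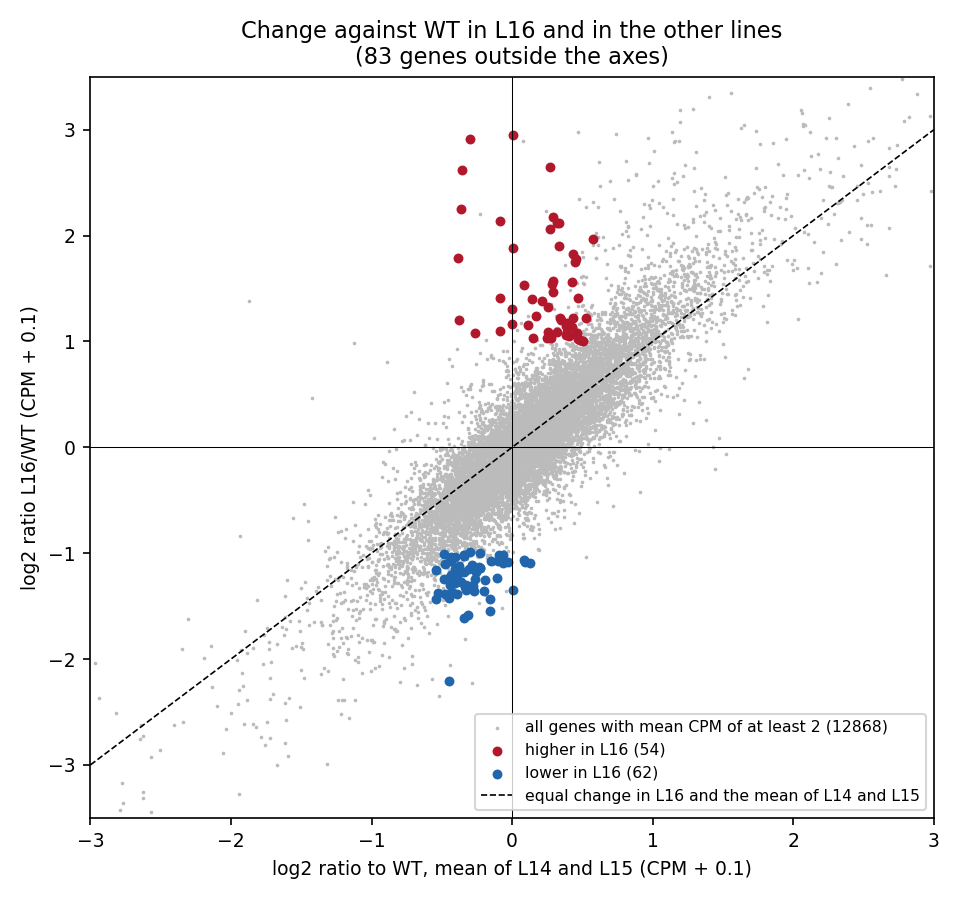
Change against the wild type in L16 (vertical axis) and in the mean of L14 and L15 (horizontal axis), both as log2 ratios of (CPM + 0.1), for the 12868 genes with a mean of at least 2 CPM (grey), the 54 higher genes (red), and the 62 lower genes (blue). The dashed line marks equal change, and 83 genes lie outside the axes. Most red points lie right of 0 and most blue points left of 0. Both axes use the same wild type libraries, and without wild type replicate 3 both lines were above the wild type in only 27 of the 54 higher genes.

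Set against L14 and L15 directly, the higher genes were the better separated. The median L16 over L14 ratio was 2.31 (range 1.40 to 8.87) and the median L16 over L15 ratio 2.13 (range 1.37 to 10.98), and both were at least 2 in 33 of 54 genes. For the lower genes the medians were 0.514 over L14 and 0.542 over L15, and both ratios were 0.5 or less in 12 of 62. The median L15 over L14 ratio was 0.998 for the higher genes (range 0.635 to 1.47) and 0.934 for the lower genes (range 0.640 to 1.53). Over all genes with a mean of at least 2 CPM it was 0.974. The rule kept both lines in the same band around the wild type, so nothing is read from their closeness.

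All genes with enough counts (18823, the 116 among them) were also tested in a single edgeR quasi-likelihood fit that held the 12 libraries, and a gene was called at a Benjamini-Hochberg adjusted p under 0.05. Every contrast of this fit shares values with the rule, so the counts below describe the genes and support nothing further. In L16 against the wild type 53 of 54 higher genes were called (14.6% of all genes tested were called higher) and 62 of 62 lower genes (12.7% called lower). In L16 against L14 37 of 54 higher genes were called (1.16% of all genes called higher) and 16 of 62 lower genes (0.574% called lower). In L16 against L15 27 of 54 higher genes (0.494%) and 8 of 62 lower genes (0.218%) were called. Thus 27 higher genes were called against the wild type, L14, and L15 alike, while 45 of 62 lower genes were called against the wild type only. This reflects the adjusted threshold. At an unadjusted p under 0.05 in edgeR, 61 of 62 lower genes were lower in L16 against L14 and 59 against L15. For the higher genes these counts were 54 and 53 of 54. Over all 18823 genes, 2789 and 1986 were at such a p in either direction.

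In L14 against the wild type none of the 54 higher genes was called higher (6.61% of all genes tested) by edgeR or by DESeq2's Wald test, with 4 of the 54 at an unadjusted p under 0.05 in edgeR, and 7 of 62 lower genes were called lower (5.94%). In L15 against the wild type 1 of 54 higher genes (8.5%) and 9 of 62 lower genes (6.85%) were called. At an unadjusted p under 0.05 in edgeR, 20 of 62 lower genes were lower in L14 and 23 in L15. At such a p 5 of 54 higher genes were higher in L15. Over all 18823 genes, 5260 in L14 and 5522 in L15 were at such a p in either direction. All 7 lower genes called in L14 were also called in L15, and Nitab4.5_0000737g0020 was one of them. The comparisons of L16, L14, and L15 with the wild type share the same 3 wild type libraries.

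The counts of calls between lines turned on single libraries. In L16 against L14 the count of higher genes was 12 without L14 replicate 2, 16 without L16 replicate 2, and 23 without L14 replicate 1, in place of 37. The count of lower genes in that contrast, 16, was 2 without L14 replicate 2, 4 without L16 replicate 2, 8 without L16 replicate 1 or L14 replicate 3, 9 without L14 replicate 1, and 10 without L15 replicate 1. In L16 against L15 the 27 higher genes became 7 without L15 replicate 2, 8 without L15 replicate 1, and 11 without L16 replicate 2. The 8 lower genes became 1 without L16 replicate 2, L15 replicate 1, or L15 replicate 2, 2 without L16 replicate 1, 4 without L14 replicate 2 or L15 replicate 3, and 5 without L16 replicate 3. In L14 against the wild type the 7 lower genes became 1 without L14 replicate 1, 2 without wild type replicate 3, and 3 without L14 replicate 3 or wild type replicate 2. In L15 against the wild type the 9 lower genes became 0 without L15 replicate 1, 2 without L15 replicate 2, 4 without L15 replicate 3, 5 without wild type replicate 2 or 3, and 14 without L16 replicate 3. The single higher gene called in L15 became 3 without wild type replicate 2, and 2 without wild type replicate 3 or L16 replicate 1. It became 0 without L15 replicate 1 or 3. The count of 0 in L14 became 2 without wild type replicate 2 and 1 without wild type replicate 3. Some higher genes were then called in the opposite direction. Without wild type replicate 3 these were 3 in L15 (1156 of 19352 genes tested were called lower) and 1 in L14 (923 of 19352). Without L15 replicate 3 there was 1 in L15 (1000 of 19544). Leaving out a library also lowers the number of libraries in the fit.

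Applied to the other lines in place of L16, the same rule found 6 higher and 2 lower genes for L14 and 2 higher and no lower genes for L15. Without the conditions on the ratios, all 3 L14 libraries lay above the other 9 in 129 genes and below them in 28, and all 3 L15 libraries lay above in 49 and below in 34, against 459 and 507 for L16. No test of this difference between lines was made, and the 3 lines were set against the same 3 wild type libraries.

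The replicate libraries did not contribute evenly to the higher genes. L16 replicate 2 was the highest L16 library in 45 of 54 higher genes (83.3%, against 55.1% of all 12868 genes), and wild type replicate 3 was the lowest wild type library in 41 of 54 (75.9%, against 59.0%). Both held in 37 genes (68.5%, against 36.5%). In 13 higher genes (24.1%, against 5.21% of all genes) L16 replicate 2 was at least 1.5 times each of the other L16 libraries, and in 13 (24.1%, against 3.57%) wild type replicate 3 was at 0.5 or less of each other wild type library. Among the lower genes the shares were 25 of 62 for L16 replicate 2 as the highest and 38 of 62 (61.3%) for wild type replicate 3 as the lowest. Scaled with TMM factors, which correct a library for its composition, the shares among the higher genes were 70.4% and 63.0%, against 30.1% and 35.8% of all genes. Without wild type replicate 3 the median ratio of the higher genes was 2.33 and 40 of 54 stayed at 2 or more, and without L16 replicate 2 these values were 2.25 and 42. The part that these libraries had in the choice of the genes, beyond those values, was not tested.

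**Figure D4:**
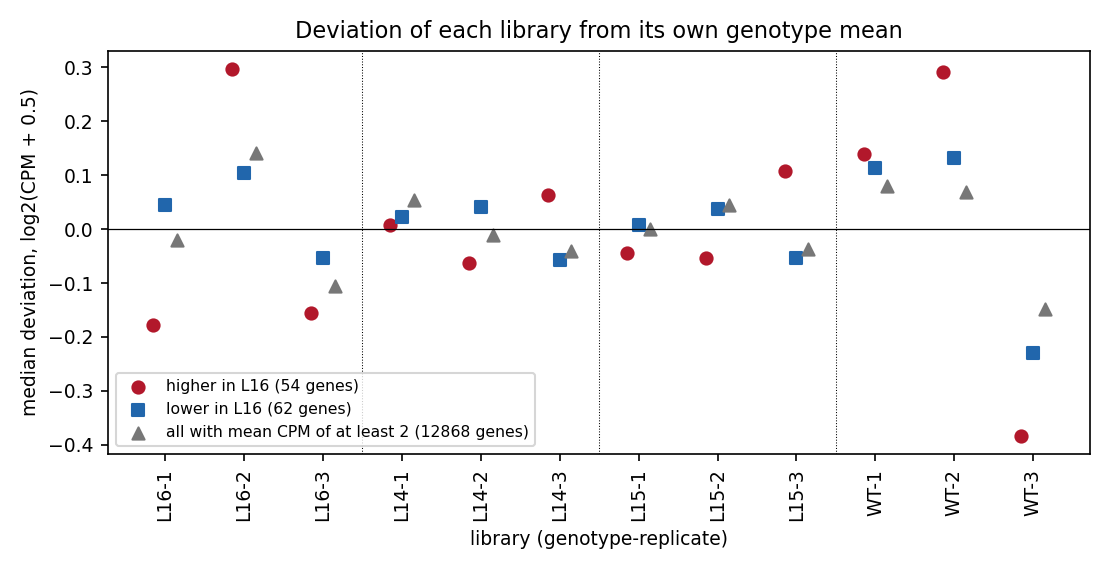
Median deviation of each library from the mean of its own genotype, in log2(CPM + 0.5), over the 54 higher genes (circles), the 62 lower genes (squares), and all 12868 genes with a mean of at least 2 CPM (triangles). The higher genes deviated by 0.30 in L16 replicate 2 and -0.38 in wild type replicate 3, against 0.14 and -0.15 over all genes, while the L14 and L15 libraries stayed near 0.

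The median coefficient of variation of a higher gene was 22.4% in L16, 16.296% in L14, 16.8% in L15, and 29.5% in the wild type, and over all 12868 genes it was 18.4, 14.207, 13.2, and 18.7%, in the same order of genotypes. For the lower genes it was 19.2% in L16, 15.4% in L14, 12.7% in L15, and 24.7% in the wild type. With wild type replicate 3 left out, the wild type value was 14.4% for the higher genes, 18.5% for the lower genes, and 12.2% for all genes, each over the 2 remaining libraries. Deviations of the higher genes within genotypes were also correlated. They come from the same libraries whose values chose the genes, so the correlation is a description and not a trait found apart from the rule. The median Pearson correlation of the deviations from genotype means over the 12 libraries was 0.411 between pairs of higher genes (1431 pairs), 0.0981 between pairs of lower genes (1891 pairs), and 0.135 between pairs of all 12868 genes. The points of these correlations share the library and its depth, and no p is given. Without wild type replicate 3 the value was 0.296 for the higher and 0.0380 for the lower genes. With TMM scaling the values were 0.270 for the higher genes, 0.0170 for the lower genes, and 0.00208 for all genes. Over the 6 libraries of L16 and the wild type alone the higher genes gave 0.622 (0.211 for all genes), and over the 6 of L14 and L15 they gave 0.0988 (0.0473 for all genes), so the shared variation of the higher genes lay mostly among the L16 and wild type libraries.

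The rule did not use the positions of the genes in the genome assembly. The 54 higher genes lay on 52 scaffolds and the 62 lower genes on 60, and 6 scaffolds held 2 genes of the set. All 12868 genes lay on 2752 scaffolds. How many scaffolds a set of this size would occupy was not computed, so nothing is read from these counts. In 4 of these the paired genes moved the same way, and in 2 they moved in opposite ways. On scaffold 0000227 a higher and a lower gene were direct neighbours among the genes with a mean of at least 2 CPM. The nearest such neighbours of the higher genes that were not in the set (85 genes) had a median L16 over wild type ratio of 1.19, with 27.1% at 1.5 or more. Those of the lower genes (98 genes) had a median of 1.05, with 13.3% at least 1.5-fold lower. Over all 12868 genes the median was 1.04, with 21.7% at 1.5 or more and 13.5% at least 1.5-fold lower. The neighbours were thus near the values of all genes, and nothing particular to them is read from this. Nitab4.5_0003540g0040 had neighbours at 0.726 and 1.11. The neighbour before Nitab4.5_0000737g0020 was itself lower in every line, at 0.319 in L16, 0.444 in L14, and 0.477 in L15, and that after Nitab4.5_0004097g0040 was higher in every line, at 11.1 in L16, 7.36 in L14, and 12.7 in L15.

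Membership depended on how the libraries were scaled and on single libraries. With TMM scaling the same rule gave 70 higher genes, 46 of them in the set of 54, and 53 lower genes, 38 of them in the set of 62. Without L16 replicate 1, 2, or 3 it gave 63, 49, or 128 higher genes and 97, 122, or 95 lower genes. Fewer L16 libraries then had to stand clear, while the L16 means also changed. Without wild type replicate 1, 2, or 3 it gave 54, 44, or 55 higher genes, of which 38, 25, and 32 were in the set, and 60, 56, or 55 lower genes, of which 38, 39, and 39 were in the set. Under all 4 ways of taking the ratios (CPM by the sum of gene counts, TMM scaling, the sum without the 20 most-counted genes, and medians in place of means) and with each of the 12 libraries left out in turn, 5 higher genes and 8 lower genes met the rule. The 5 higher genes had L16 over wild type ratios of 2.54 to 3.75 and mean levels of 3.06 to 28.1 CPM, and the 8 lower genes had ratios of 0.360 to 0.455 and mean levels of 2.18 to 22.7 CPM. The higher gene that ranked 13 and the lower gene that ranked 14, whose values are given above, were among them. Of the identifiers named, Nitab4.5_0000737g0020 met the rule with every library left out in turn, though not under all 4 ways of taking the ratios, Nitab4.5_0005046g0010 and Nitab4.5_0003540g0040 with 10 of the 12, and Nitab4.5_0004097g0040 with 6 of the 12.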

How the data were processed

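The authors mapped the QuantSeq reads to NiTAB 4.5 (the submitters' processing notes name STAR and DESeq2) and deposited a raw, unscaled count of each gene in each library. The counting program and its use of strand are not given in the sources used here. Alignments that were not unique (19.1 to 21.4% of all counts listed for a library) were set apart and not counted on genes, so genes with close copies, as a tetraploid has, can be undercounted. The 99 spike-in sequences (4.62 to 5.98% of the gene counts) and 5 summary lines were left out of library sizes. CPM was computed from the sum of gene counts. The fit used edgeR 4.0.16 in R 4.3.3 (quasi-likelihood test, TMM, filterByExpr), with Benjamini-Hochberg adjustment over 18823 genes and genotype as the only factor, and was tested on simulated data. CPM tables used Python 3.11.15, pandas 2.3.3, and numpy 2.4.6.

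Genes and lists were chosen with earlier results of these data known. The identifiers named were, in each direction, the gene with the largest L16 over wild type change (provided that L16 or the wild type averaged 50 counts or more), and the gene with the highest mean CPM. The RefSeq gene table (assembly ASM71507v2) matched none of the identifiers, and the study's mapping to Arabidopsis was not used here, so no names, gene lists, or sequences are given. Alternatives were DESeq2 1.42.0, other scalings, filters and thresholds, the 6 libraries compared, a replicate block, and each library left out in turn. Replicate numbers in the labels were not taken as pairs of libraries.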

Additional observations from a re-analysis of the deposited data

Results flagged for a closer look

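The effects of the lines against the wild type were tested for their difference, which is the contrast between the lines. It passed an adjusted p under 0.05 (edgeR's quasi-likelihood test) for 326 genes between L16 and L14, of which 218 were higher and 108 lower in L16, and for 134 genes between L16 and L15, of which 93 were higher and 41 lower in L16. The genes of the set made up 37 of the 218 and 16 of the 108 between L16 and L14, and 27 of the 93 and 8 of the 41 between L16 and L15. These totals moved with single libraries. Between L16 and L14 the higher and lower counts were 133 and 53 without L16 replicate 1, 89 and 25 without L16 replicate 2, 68 and 18 without L14 replicate 2, 120 and 47 without L14 replicate 3, and 360 and 182 without wild type replicate 3, and the lower count was 71 without L15 replicate 1. Between L16 and L15 they were 58 and 14 without L16 replicate 1, 26 and 4 without L16 replicate 2, 24 and 6 without L15 replicate 1, and 18 and 3 without L15 replicate 2, and the lower count was 23 without L16 replicate 3 and 26 without L15 replicate 3.

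A signal outside the gene counts also separated the lines from the wild type. The spike-in SIRV4, added to the RNA in the laboratory and not made by the plant, took 6.50 to 7.77% of the spike-in counts in L16, 6.58 to 7.55% in L14, 6.34 to 7.33% in L15, and 5.19 to 5.38% in the wild type. It was picked out because its lowest L16 value, 6.498%, was above the highest wild type value. The spike-in SIRV7 was also apart, at 1.80 to 2.85% in L16, 2.07 to 2.78% in L14, and 2.16 to 2.55% in L15. In the wild type SIRV7 took 1.59 to 1.74%. The shares of the other spike-in sequences are not given here. The part of these spike-ins in the results above was not tested.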

How the results depend on the processing

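Of 114 alternatives over 22 results, other than leaving out a library, 80 gave a value within 1.5 times of that reported and 34 moved it further. A reversal was not defined for these results and was not assessed. With a mean of at least 5 CPM the rule gave 37 lower genes, with L14 and L15 held at most 25% above and 20% below the wild type it gave 14 higher and 17 lower genes, and with a 3-fold change it gave 19 and 4. In L16 against L14 all genes called higher were 464 with DESeq2's Wald test and 569 with no filter, and those called lower 313 and 344. In L16 against L15 they were 219 and 274 higher (146 with the 6 libraries compared) and 136 and 166 lower.

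Alternatives for the counts of called genes of the set, for neighbours, for co-variation, and for the levels of L14 and L15 against the wild type were chosen after seeing the data. With DESeq2 and with no filter, L16 against L14 gave 39 and 37 lower genes, L16 against L15 gave 41 and 43 higher and 28 and 29 lower genes, and L15 against the wild type gave 3 and 2 higher genes. Over all genes tested, those called higher in L15 against the wild type were 1831 of 18823 with DESeq2 and 2033 of 28986 with no filter. With no filter 2 other higher genes of the set were called lower in L15 (1416 of 28986 over all genes). DESeq2 gave 15 lower genes in L15 (1607 of 18823 over all genes). No filter gave 1 higher gene in L14 (1737 of 28986), and the 6 libraries compared gave 3 lower genes in L14 (933 of 17516). TMM scaling moved the co-variation to 0.270 (higher) and 0.0170 (lower).

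Replicate numbers in the labels were tested as a pairing. Same-numbered libraries of L16 and the wild type had a mean correlation of deviations of 0.0304, and those of L16 with L14 and with L15 0.116 and 0.136. In no comparison did every pair exceed 0.1, so the numbers were not taken as pairs. Between L14 and L15 same-numbered libraries gave 0.0876 to 0.171, and differently numbered ones -0.126 to -0.0157. For L16 with L15 these ranges were 0.0561 to 0.188 and -0.166 to 0.0364. For L16 with L14 they overlapped, at -0.0499 to 0.239 and -0.265 to 0.123. Whether the lines share a replicate effect was not tested further. With the replicate block the calls were 3039 higher and 2679 lower in L16 against the wild type (54 and 62 genes of the set), 427 higher and 250 lower in L16 against L14 (30 lower genes of the set), and 74 lower in L16 against L15 (18 lower genes of the set). The block gave 2 higher genes of the set in L14 and 4 in L15 against the wild type. Over all 18823 genes tested it gave 1595 and 1915.

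With each library left out in turn, the rule gave 44 to 128 higher and 55 to 122 lower genes. All genes called ranged from 1967 to 2810 higher and 1634 to 2547 lower in L16 against the wild type, 68 to 360 and 18 to 182 against L14, and 18 to 131 and 3 to 54 against L15. They ranged from 674 to 1409 higher and 490 to 1324 lower in L14 against the wild type. In L15 against the wild type these ranges were 837 to 1661 and 526 to 1576. Genes of the set called in their own direction ranged from 48 to 54 higher and 57 to 62 lower in L16 against the wild type. The ranges were 12 to 44 and 2 to 24 in L16 against L14, and 7 to 33 and 1 to 10 against L15. In L14 against the wild type they were 0 to 2 and 1 to 8, and in L15 against the wild type 0 to 3 and 0 to 14. Medians of neighbours ranged from 1.16 to 1.24 (higher) and 0.976 to 1.13 (lower), and co-variation from 0.296 to 0.464 (higher) and 0.0380 to 0.121 (lower).

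Some of the lower genes rest on low levels. A mean under 5 CPM was found in 25 of 62 (40.3%), against 27.7% of all 12868 genes. A library under 10 counts was found in 2 of 62 (3.23%), against 1.96%. L16 is 1 transgenic line, so the transgene and the line cannot be told apart, and gene functions were not analysed here.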
